A study of Mus musculus with 28 samples.

Results

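The genes described here are 8 that set the heart beat and carry it through the heart. They are the pacemaker channel genes Hcn2 and Hcn4, the T-type calcium channel genes Cacna1g and Cacna1h, the connexin genes Gja1 and Gja5, the cell adhesion gene Cntn2 and the transcription factor gene Tbx3. They were taken by gene name from the table of raw counts, and they are 8 of 45513 gene rows. RNA of ventricular myocardium from 28 adult male C57BL/6 mice was sequenced, with 1 library per mouse. All mice ate a diet with 1% hydroxyproline, a precursor of oxalate, and 0.5% calcium. Surgery, at 6 weeks of age, was either the removal of 5/6 of the kidney mass in stages, which models chronic kidney disease (CKD), or a sham operation. On day 7 each mouse was given 1 gavage of the oxalate-degrading bacterium Oxalobacter formigenes (Oxf) or of culture medium (vehicle). There were 10 sham-vehicle, 6 CKD-vehicle, 7 CKD-Oxf and 5 sham-Oxf mice. The design plans 10 mice per group, and the mice beyond these 28 were not analysed here. Mice are called by the number in their label, which runs on from group to group.

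As background, HCN channels carry the inward current that depolarizes pacemaker cells between beats, with Hcn4 the main form of the sinus node and Hcn2 also found in working myocardium. T-type calcium channels add to that depolarization. The impulse passes from cell to cell through gap junctions, which in ventricular muscle are built mainly of connexin 43, the product of Gja1. Connexin 40, the product of Gja5, is found in atria, the fast conduction system and arterial endothelium. Cntn2 encodes contactin-2, a marker of Purkinje and other conduction cells, and Tbx3 encodes a repressor that keeps conduction cells from taking on the working muscle programme.

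Libraries held between 19.8 M and 65.4 M counts. Mouse 921 (sham-Oxf) had 15879 genes with a count, against 27128 to 33995 in the other libraries, and 7SL RNA took 1.83% to 21.0% of counts, with mice 916 (CKD-vehicle, 21.0%), 934 (CKD-Oxf, 20.6%), 905 (sham-vehicle, 19.9%) and 914 (CKD-vehicle, 19.1%) the highest. All 6 ventricular cardiomyocyte markers and all 7 atrial ones were above 0 in every library. The ventricular markers were Myh6, Myl2, Myl3, Tnni3, Tnnt2 and Actc1, and the atrial ones were Sln, Myl7, Myl4, Nppa, Bmp10, Fgf12 and Dkk3. Whether the ventricular list tells ventricular from atrial muscle was not tested. Summed ventricular markers lay between 14632 and 41538 CPM (counts scaled to a library of 1 M). Summed atrial markers ran from 74.3 to 3037 CPM in this tissue labelled as ventricle. Mice 927 (sham-Oxf) and 935 (CKD-Oxf) had the lowest atrial scores, -4.27 and -4.72, where a score is the mean over a marker list of log2 CPM minus the sham-vehicle mean. Mouse 921 had the lowest leukocyte, Schwann cell and nerve, and adipocyte scores, at -1.51, -3.05 and -6.62. Correlations with scores over 28 libraries were not computed without that mouse.

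Levels below are CPM scaled by the trimmed mean of M-values (TMM), and all 8 genes passed the filter on low counts. Per kilobase (kb) of exon, the median level over 28 libraries was highest for Gja1, at 14.8 CPM per kb. Cacna1h followed with a median level of 8.79 CPM per kb, then Tbx3 with 4.25, Cacna1g with 3.71 and Gja5 with 3.40. The lowest median levels were 2.57 CPM per kb for Cntn2, 2.19 for Hcn2 and 1.48 for Hcn4. The ranges of all neighbours in this order overlapped. For the 2 highest, Gja1 ran from 10.5 to 34.1 CPM per kb and Cacna1h from 2.51 to 20.4.

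The sequence before a RefSeq start (build GRCm38.p6) was found for 5 of the 8 genes. The windows of both connexin genes and of Hcn4 are shown, since the gavage result turns on Gja1 and Hcn4 is the gene whose level followed another of the 8 most closely. Each line gives the 250 bases before the RefSeq start, 5′ to 3′ on the gene's strand, and capitals mark a match to a searched motif on either strand. For Gja5 that start lies inside the gene span given below from GENCODE, 96904693 to 97077416.
Gja1, chr10:56377050-56377299, plus strand: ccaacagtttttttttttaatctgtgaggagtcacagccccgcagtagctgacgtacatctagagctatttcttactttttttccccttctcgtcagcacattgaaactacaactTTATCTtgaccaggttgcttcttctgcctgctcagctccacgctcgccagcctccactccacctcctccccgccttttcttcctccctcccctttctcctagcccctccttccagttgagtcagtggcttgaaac
Gja5, chr3:97032152-97032401, plus strand: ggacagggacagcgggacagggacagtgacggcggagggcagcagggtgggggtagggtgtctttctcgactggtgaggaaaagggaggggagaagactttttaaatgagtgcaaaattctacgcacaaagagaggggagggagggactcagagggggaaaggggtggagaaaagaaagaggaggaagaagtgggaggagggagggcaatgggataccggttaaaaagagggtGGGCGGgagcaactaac
Hcn4, chr9:58822699-58822948, plus strand: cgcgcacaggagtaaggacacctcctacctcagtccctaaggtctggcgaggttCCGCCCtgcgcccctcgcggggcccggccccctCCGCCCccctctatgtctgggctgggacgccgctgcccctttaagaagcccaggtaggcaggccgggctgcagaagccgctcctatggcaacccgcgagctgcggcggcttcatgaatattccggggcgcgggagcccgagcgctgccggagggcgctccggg
The motifs searched were the E-box CACGTG, the D-box TTANGTAA, the nuclear receptor site AGGTCA, the T-box site AGGTGTGA, the GC box GGGCGG, the CCAAT box CCAAT and the GATA site AGATAA. The Gja1 window held 1 GATA site, at positions -135 to -130 from the start, which 10.2% of 27025 windows of this length also held. The Gja5 window held 1 GC box and the Hcn4 window 2, a motif found in 32.7% of windows. None of these 3 windows held the letters of the E-box (5.93% of windows) or of the D-box (2.14%).

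Gja1 (ENSMUSG00000050953, chromosome 10, 56377330 to 56402513, plus strand, GRCm38), which encodes the main ventricular connexin, was lower in mice given Oxf when the gavage effect was averaged over both surgeries. In sham-vehicle its level ran from 119 to 227 CPM with a median of 151, and in CKD-vehicle from 143 to 350 CPM with a median of 199. In sham-Oxf the 5 mice had 160, 115, 127, 156 and 140 CPM. In CKD-Oxf the level ran from 108 to 174 CPM with a median of 125. The single highest library was mouse 914 of CKD-vehicle, at 350 CPM, and the groups overlapped in every pairwise comparison, as did those of the other 7 genes. Groups did not overlap for 0.128% of all genes in CKD-vehicle against sham-vehicle, 0.478% in CKD-Oxf against CKD-vehicle, 0.227% in sham-Oxf against sham-vehicle and 0.272% in CKD-Oxf against sham-Oxf. All 12 Oxf libraries lay below the median of the 16 vehicle libraries, and 9 of those 16 lay above every Oxf library.

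Averaged over surgery, the log2 fold change of Gja1 for Oxf was -0.46 ± 0.13 (SE), with an edgeR adjusted p of 0.0473 over 24273 genes. Of all genes tested, 2.81% passed in this comparison, 1.54% as lower and 1.26% as higher. Gja1 was the 1 gene of the 8 that passed. The call was close to its threshold: it held in 12 of 28 edgeR fits that each left out 1 library, with log2 fold changes between -0.50 and -0.37. It was lost without mouse 903, 904, 905 or 907 of sham-vehicle, mouse 913, 914, 916 or 918 of CKD-vehicle, mouse 923, 927 or 929 of sham-Oxf, or mouse 932, 933, 935, 936 or 940 of CKD-Oxf. Without mice 921 and 934 together, a setting chosen after seeing the data, it was -0.51 (edgeR adjusted p 0.0145), where 19.1% of all genes passed. DESeq2 and limma voom also called Gja1, and they called 9.97% and 21.9% of all genes.

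**Figure D1:**
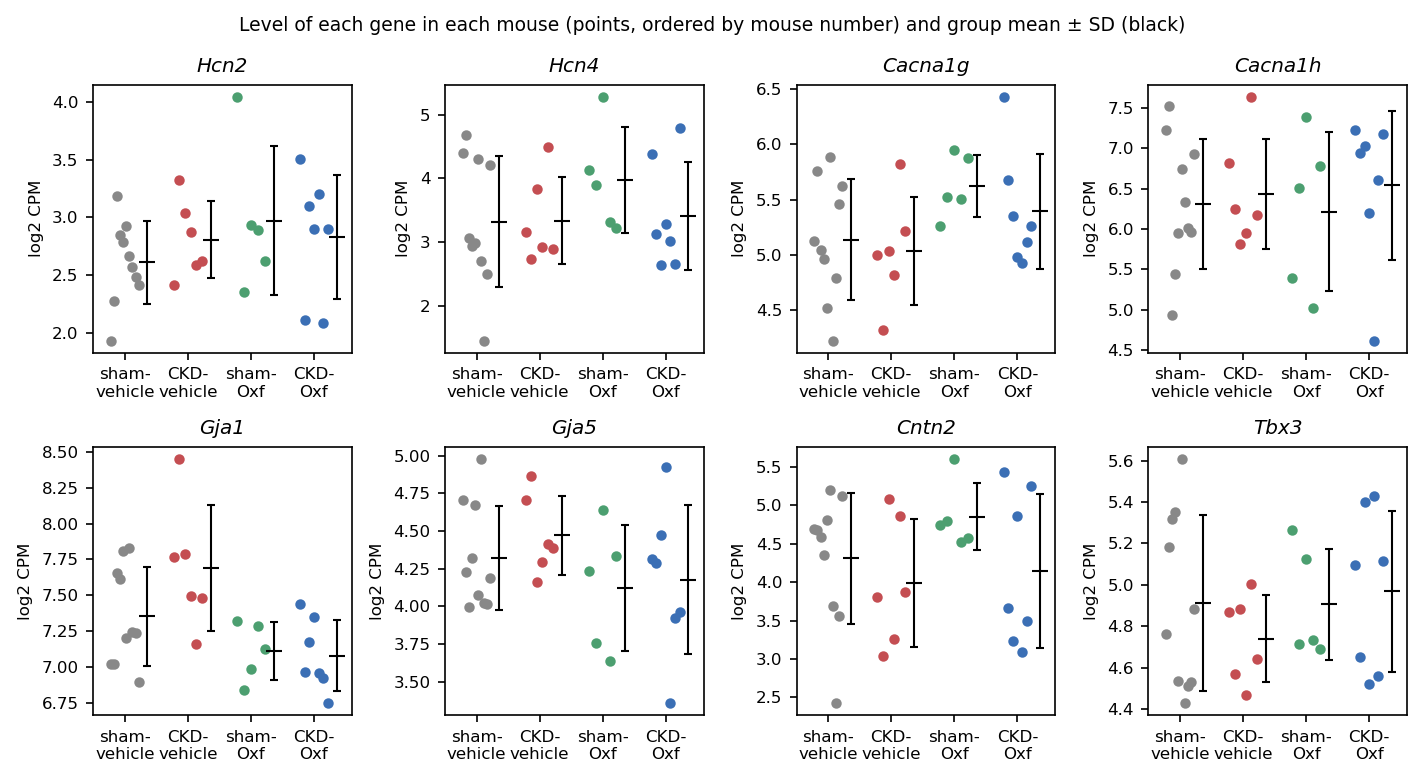
Level of each of the 8 genes (log2 CPM, TMM scaled) in each mouse of the 4 groups, one point per mouse in order of mouse number, with the group mean ± SD in black. For Gja1 the Oxf mice lie between 108 and 174 CPM, and mouse 914 stands above all others.

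In CKD alone, the log2 fold change of Gja1 in CKD-Oxf against CKD-vehicle was -0.65 ± 0.18 (edgeR adjusted p 0.196), and all 7 CKD-Oxf mice lay below the CKD-vehicle median. None of the 8 genes passed here in edgeR, where 0.033% of all genes did. Gja1 had an unadjusted p of 0.0011 and was the only one of the 8 with an unadjusted p under 0.05, as 13.1% of all genes had. With DESeq2 its adjusted p was 0.0294 and with limma voom 0.0125, but these called far more genes: 1.75% of the 11561 genes to which DESeq2 gave an adjusted p, and 14.9% of all genes with limma voom. Without mouse 914 the log2 fold change was -0.46, and without mouse 934 it was -0.70 with an edgeR adjusted p of 0.0358, where 3.83% of all genes passed.

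In sham mice, the log2 fold change of Gja1 in sham-Oxf against sham-vehicle was -0.27 ± 0.18 (edgeR adjusted p 0.555), and 3 of 5 sham-Oxf mice lay below the sham-vehicle median. CKD-vehicle was 0.36 ± 0.17 above sham-vehicle on the log2 scale (edgeR adjusted p 0.955), with 5 of 6 mice above the sham-vehicle median. These comparisons share the sham-vehicle or CKD-vehicle mice. CKD-Oxf and sham-Oxf differed by -0.03 ± 0.19 (edgeR adjusted p 0.99). Whether the gavage effect differed with surgery was tested as an interaction, which was -0.38 ± 0.25 for Gja1 (edgeR adjusted p 1).

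The level of Gja1 moved together with several library measures. With group means removed, its correlation over 28 libraries was 0.820 with the ventricular cardiomyocyte score, 0.730 with the endothelial score (5 markers, summing to between 554 and 1170 CPM over all libraries), 0.649 with the log2 share of 7SL RNA and -0.480 with the clock score. It was -0.606 with the Schwann cell and nerve score, -0.572 with the adipocyte score and -0.515 with the leukocyte score, all from the same libraries. The 6 ventricular markers summed to between 14632 and 29870 CPM in sham-vehicle, 26162 and 41538 in CKD-vehicle, 16325 and 24158 in sham-Oxf, and 19480 and 34960 in CKD-Oxf. The clock score is the mean of 8 genes around Dbp and Per1 minus that of 5 genes around Arntl. It ran from -2.63 to -0.14 in CKD-vehicle, from -1.53 to 1.80 in sham-vehicle, from 0.89 to 2.18 in sham-Oxf and from -0.098 to 1.81 in CKD-Oxf, with no overlap between the CKD groups, so clock score and gavage cannot be told apart in CKD mice. With the clock score as a covariate, the averaged Oxf effect on Gja1 was -0.025 ± 0.19 (edgeR adjusted p 0.984). The ventricular score as a covariate, chosen after seeing the data, gave -0.22 ± 0.085 (edgeR adjusted p 0.177), and the 7SL share gave -0.24 ± 0.11 (adjusted p 0.291). In bulk tissue, fewer cells of a type and less RNA per cell cannot be told apart.

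**Figure D2:**
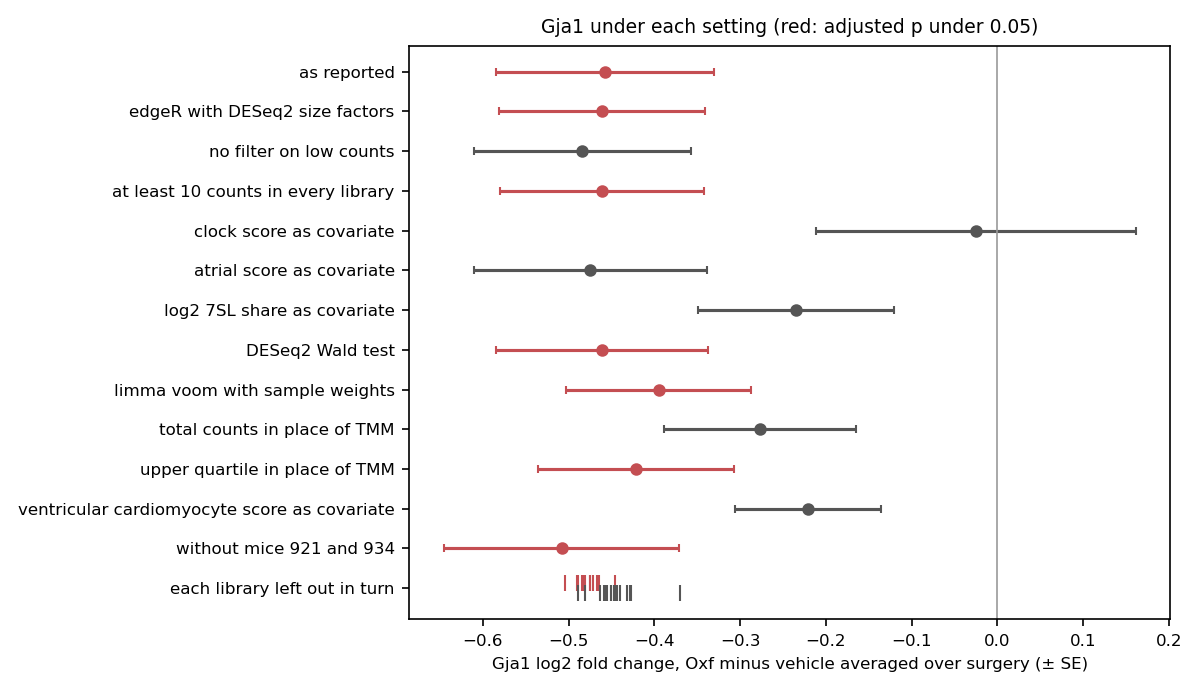
Log2 fold change of Gja1 for Oxf averaged over surgery (horizontal axis, ± SE) under each setting, with red marking an edgeR, DESeq2 or limma adjusted p under 0.05 and tick marks showing each library left out in turn. The values lie between -0.51 and -0.025.

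Scaling by total counts in place of TMM, also chosen after seeing the data, put the median of all genes at 0.16 for the averaged Oxf effect and at 0.20 for CKD-Oxf against CKD-vehicle on the log2 scale. Under it the averaged Oxf effect on Gja1 was -0.28 (edgeR adjusted p 0.201), which is -0.44 relative to that median. Relative to the TMM median it was -0.46.

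Gja5 (ENSMUSG00000057123, chromosome 3, 96904693 to 97077416, plus strand) encodes connexin 40. Its exons overlap those of Gpr89 on the other strand, and use of strand in the counting is not given in the sources used here. Its level ran from 15.9 to 31.5 CPM in sham-vehicle, from 17.8 to 29.1 in CKD-vehicle and from 10.2 to 30.4 in CKD-Oxf, with medians of 18.4, 21.1 and 19.4 CPM. The 5 sham-Oxf mice had 18.8, 13.5, 24.9, 12.4 and 20.1 CPM. The groups overlapped throughout, and its log2 fold change for Oxf averaged over surgery was -0.22 ± 0.15 (edgeR adjusted p 0.381). With group means removed Gja5 correlated at 0.703 with the atrial score and at 0.672 with the fibroblast score. By the same measure it correlated at 0.0076 with the arterial endothelium score and at 0.163 with Cntn2. The mice with the lowest atrial scores, 927 and 935, were the lowest of their groups, at 12.4 and 10.2 CPM. Within groups, r with the atrial score was 0.686 in sham-vehicle, -0.147 in CKD-vehicle and 0.755 in CKD-Oxf. Without the 2 mice whose atrial scores lie farthest from the median, it was 0.819, -0.206 and -0.032, in that order. Gpr89 lay between 9.32 and 13.9 CPM, except in mouse 921, where it had 0 counts.

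Hcn4 (ENSMUSG00000032338, chromosome 9, 58823412 to 58863175, plus strand), the sinus node form, varied widely within every group. Its level ran from 2.69 to 25.5 CPM in sham-vehicle (median 8.10), from 6.61 to 22.6 in CKD-vehicle (median 8.18) and from 6.17 to 27.6 in CKD-Oxf (median 8.66). The sham-Oxf mice had 17.5, 14.9, 38.9, 9.86 and 9.29 CPM, and all 5 lay above the sham-vehicle median. The difference, 0.55 ± 0.44 on the log2 scale, did not pass (edgeR adjusted p 0.636), and without mouse 925, the highest library, it was 0.042. For Oxf averaged over surgery it was 0.36 ± 0.32 (adjusted p 0.546), and 0.097 without mouse 925.

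Hcn2 (ENSMUSG00000020331, chromosome 10, 79716634 to 79736108, plus strand) had levels that overlapped between all groups. It ran from 3.76 to 9.07 CPM in sham-vehicle (median 6.09), from 5.28 to 9.95 in CKD-vehicle (median 6.69) and from 4.19 to 11.3 in CKD-Oxf (median 7.42). The sham-Oxf mice had 16.5, 5.07, 7.61, 7.35 and 6.12 CPM, of which the first is mouse 921, the library with few genes detected. The log2 fold change in sham-Oxf against sham-vehicle was 0.45 ± 0.24 (edgeR adjusted p 0.441), and without mouse 921 it was 0.071 (adjusted p 0.923). With the ventricular score as a covariate, Hcn2 was 0.51 higher for Oxf averaged over surgery (edgeR adjusted p 0.0405), against 0.26 ± 0.18 without it (adjusted p 0.391). With this covariate 0.931% of all genes passed. Without mouse 921 the averaged effect, with no covariate, was 0.069 (adjusted p 0.807), and the covariate was not fitted without that mouse. With group means removed, Hcn2 correlated at 0.785 with the ventricular score and at -0.727 with the leukocyte score. Mouse 921 had both the highest Hcn2 and the lowest leukocyte score of all (-1.51), and these correlations were not computed without that mouse.

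Cacna1g (ENSMUSG00000020866, chromosome 11, 94408391 to 94474198, minus strand) encodes the T-type channel Cav3.1. Its level ran from 18.6 to 59.0 CPM in sham-vehicle (median 33.8), from 19.9 to 56.5 in CKD-vehicle (median 32.3) and from 30.3 to 86.4 in CKD-Oxf (median 38.4). The sham-Oxf mice had 38.3, 46.1, 61.8, 45.4 and 58.5 CPM. The groups overlapped, and 10 of 12 Oxf libraries lay above the vehicle median. For Oxf averaged over surgery the log2 fold change was 0.40 ± 0.18, with an unadjusted p of 0.0358 and an edgeR adjusted p of 0.184, and with limma voom, which called 21.9% of all genes, it passed (adjusted p 0.0255).

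Cacna1h (ENSMUSG00000024112, chromosome 17, 25374285 to 25433783, minus strand) encodes Cav3.2, and its exons overlap those of Tpsg1, which was at most 0.320 CPM in any library. Its level ran from 30.6 to 183 CPM in sham-vehicle (median 72.6), from 56.2 to 199 in CKD-vehicle (median 74.0) and from 24.5 to 150 in CKD-Oxf (median 123). The sham-Oxf mice had 42.1, 91.1, 167, 32.3 and 110 CPM. With group means removed over 28 libraries, the level correlated at 0.746 with the atrial score and -0.645 with the ventricular score. It correlated at 0.744 with the Schwann cell and nerve score and 0.715 with the adipocyte score. Mice 927 and 935 were the lowest of their groups. Within groups, r with the atrial score was 0.756 in sham-vehicle, 0.492 in CKD-vehicle and 0.822 in CKD-Oxf. Without the 2 mice whose atrial scores lie farthest from the median, it was 0.433, 0.454 and -0.356, in that order. The 7 atrial markers summed to between 233 and 3037 CPM in sham-vehicle, 1153 and 2791 in CKD-vehicle, 74.3 and 2277 in sham-Oxf, and 107 and 2193 in CKD-Oxf, and the part of these cell types in the level of Cacna1h was not tested. For Oxf averaged over surgery the log2 fold change was 0.05 ± 0.29 (edgeR adjusted p 0.942), with values from -0.13 to 0.23 as 1 library was left out.

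Cntn2 (ENSMUSG00000053024, chromosome 1, 132509427 to 132543256, minus strand), the conduction cell marker, ran from 5.34 to 36.6 CPM in sham-vehicle (median 24.8), from 8.18 to 33.8 in CKD-vehicle (median 14.3) and from 8.44 to 43.0 in CKD-Oxf (median 12.6). The sham-Oxf mice had 26.7, 27.7, 48.5, 23.0 and 23.8 CPM. Groups overlapped, and the log2 fold change for Oxf averaged over surgery was 0.34 ± 0.29 (edgeR adjusted p 0.522), with values from 0.20 to 0.46 as 1 library was left out.

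Tbx3 (ENSMUSG00000018604, chromosome 5, 119670669 to 119684724, plus strand), whose exons overlap those of the antisense gene Tbx3os1, had levels that overlapped between all groups. It ran from 21.5 to 48.7 CPM in sham-vehicle (median 28.3), from 22.1 to 32.1 in CKD-vehicle (median 27.0) and from 22.9 to 43.0 in CKD-Oxf (median 34.2). The sham-Oxf mice had 38.4, 26.2, 34.8, 26.6 and 25.7 CPM. For Oxf averaged over surgery its log2 fold change was 0.11 ± 0.13 (edgeR adjusted p 0.685). Tbx3os1 ran from 1.05 to 9.77 CPM, so reads assigned to Tbx3 and its antisense partner cannot be told apart if strand was not used.

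**Figure D3:**
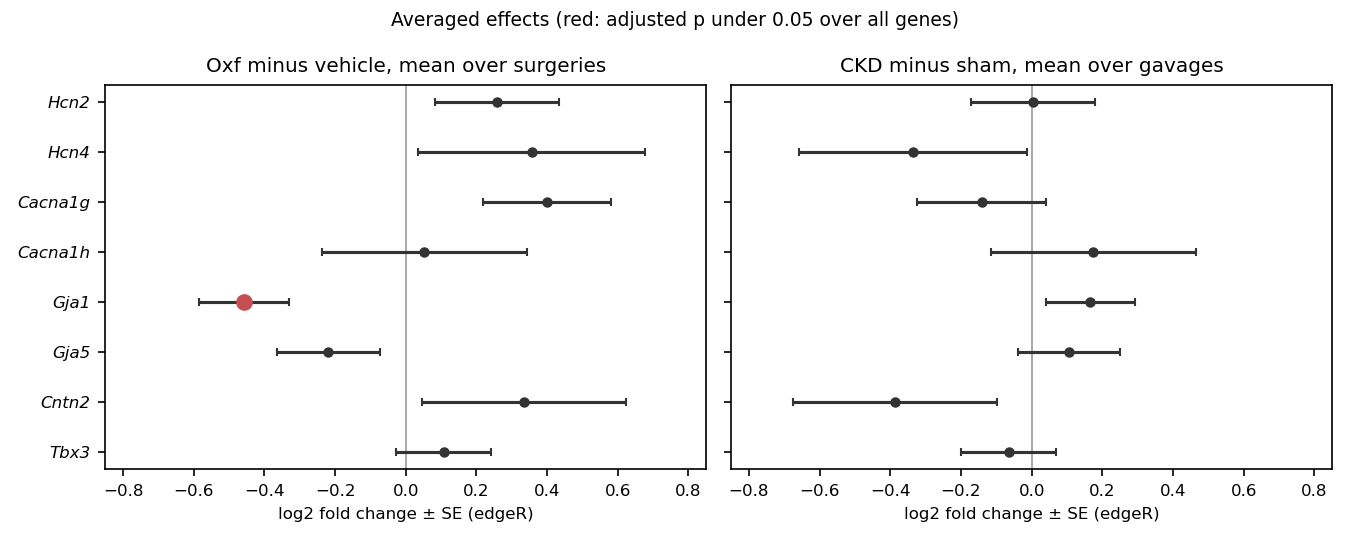
Log2 fold change ± SE of the 8 genes for Oxf minus vehicle averaged over surgery (left) and CKD minus sham averaged over gavage (right). Gja1 at left, in red, is the only one with an edgeR adjusted p under 0.05.

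The other comparisons gave no call among the 8 genes in edgeR. For CKD-vehicle against sham-vehicle 0 of 8 passed in edgeR, where 0.00824% of all genes did, and 1 (Gja1) had an unadjusted p under 0.05, against 4.46% of all genes. For sham-Oxf against sham-vehicle, CKD-Oxf against sham-Oxf, the interaction and surgery averaged over gavage, 0 of 8 passed in edgeR and 0 of 8 had an unadjusted p under 0.05. In those 4, in that order, 0% of all genes passed in edgeR and 12.6%, 8.23%, 3.55% and 10.6% had an unadjusted p under 0.05. DESeq2 and limma voom also called 0 of 8 in these 4, where DESeq2 called 0.56%, 0.421%, 0% and 0.425% of genes and limma voom 0.132%, 0%, 0% and 0.515%. Both called 0 of 8 in CKD-vehicle against sham-vehicle, against 0.12% of genes with DESeq2 and 0.227% with limma voom. The median log2 fold change of the 8 for Oxf averaged over surgery was 0.18, against 0.0031 over all genes, with 6 above 0 and 2 below. Of the 6 above 0, 0 passed in edgeR, and of the 2 below, 1 did (Gja1).

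Levels were then set against mouse number within groups. The common slope over all groups passed for 0 of 8 genes in edgeR and 0 of 8 at an unadjusted p under 0.05, where 0.0371% and 5.5% of all genes did. DESeq2 and limma voom also called 0 of 8, against 0.227% and 0.128% of genes. For Gja1 the slope was -0.044 ± 0.022 log2 units per mouse number (edgeR adjusted p 0.824). Within sham-vehicle (n = 10) the correlations of the 8 genes ran from -0.432 to 0.118, within CKD-vehicle (n = 6) from -0.745 to 0.605 and within CKD-Oxf (n = 7) from -0.750 to 0.317. Over these 24 relations 0 passed adjustment over all genes, as 0% of genes did, and 1 had an unadjusted p under 0.05. Of all genes, 2.01% had one in sham-vehicle, 4.0% in CKD-vehicle and 3.95% in CKD-Oxf.

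That relation was Gja1 in CKD-Oxf, with Pearson r -0.750 (exact permutation p 0.0456, adjusted p 0.988) and Spearman rho -0.857 (exact permutation p 0.0238, adjusted p 0.874, n = 7). Leaving out the 2 mice whose numbers lie farthest from the median gave r -0.259 (n = 5), and on total-count CPM r was -0.027. The value thus did not hold under either change, and the reason was not tested. For CKD-vehicle, Gja1 gave r -0.745 (adjusted p 0.687, exact permutation p 0.0708) with rho -0.771 (exact permutation p 0.103, n = 6). For sham-vehicle it gave r -0.086 (permutation p 0.81) with rho -0.0061 (permutation p 1, n = 10). With the same 2 mice left out of each, r stood at -0.712 and -0.045. In sham-Oxf, with 5 mice, Gja1 had 160 CPM in mouse 921, 115 in 923, 127 in 925, 156 in 927 and 140 in 929.

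The relation of the clock score to mouse number was not tested. The score was -1.53 in mouse 901 and 1.35 in mouse 910 of sham-vehicle, and -2.51 in mouse 913 and -0.62 in mouse 920 of CKD-vehicle. In sham-Oxf it was 0.89 in mouse 921 and 2.18 in mouse 929. In CKD-Oxf it was -0.098 in mouse 931 and between 1.04 and 1.81 in the others. Gja1 correlated with the clock score at r -0.862 in CKD-vehicle (exact permutation p 0.0153, adjusted p 0.315, n = 6) and rho -0.943 (exact permutation p 0.0167). For CKD-Oxf the values were r -0.788 (adjusted p 0.313, exact permutation p 0.0137, n = 7) and rho -0.929 (exact permutation p 0.00675). For sham-vehicle r was -0.152 (permutation p 0.668, n = 10) and rho 0.055 (permutation p 0.892). None passed adjustment over all genes, as 0% of genes did. An unadjusted p under 0.05 was reached by 14.7% of all genes in CKD-vehicle, 10.3% in CKD-Oxf and 4.12% in sham-vehicle. Leaving out the 2 mice with scores farthest from the median, r was -0.743, -0.958 and 0.293, in that order, and on total-count CPM it was -0.566, 0.313 and -0.532. In all, 72 correlations of the 8 genes with mouse number, clock score or atrial score were computed, of which 8 had an unadjusted permutation p under 0.05 for r and 0 passed adjustment over all genes. Beside the 3 of Gja1, these were Hcn2 with the clock score in CKD-Oxf (r -0.749) and 4 with the atrial score. The latter were Cacna1h (r 0.756) and Gja5 (r 0.686) in sham-vehicle, Tbx3 in CKD-vehicle (r 0.908, n = 6) and Cntn2 in CKD-Oxf (r 0.707). Of all genes, 8.49% had such a p in sham-vehicle, 3.04% in CKD-vehicle and 5.27% in CKD-Oxf. In sham-vehicle 0.0288% of all genes passed adjustment. By Spearman rho, 4 of the 72 had an unadjusted permutation p under 0.05. Only Gja5 in sham-vehicle did so with the atrial score. For Tbx3 the sign differed between groups, with r -0.400 in sham-vehicle and -0.536 in CKD-Oxf.

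**Figure D4:**
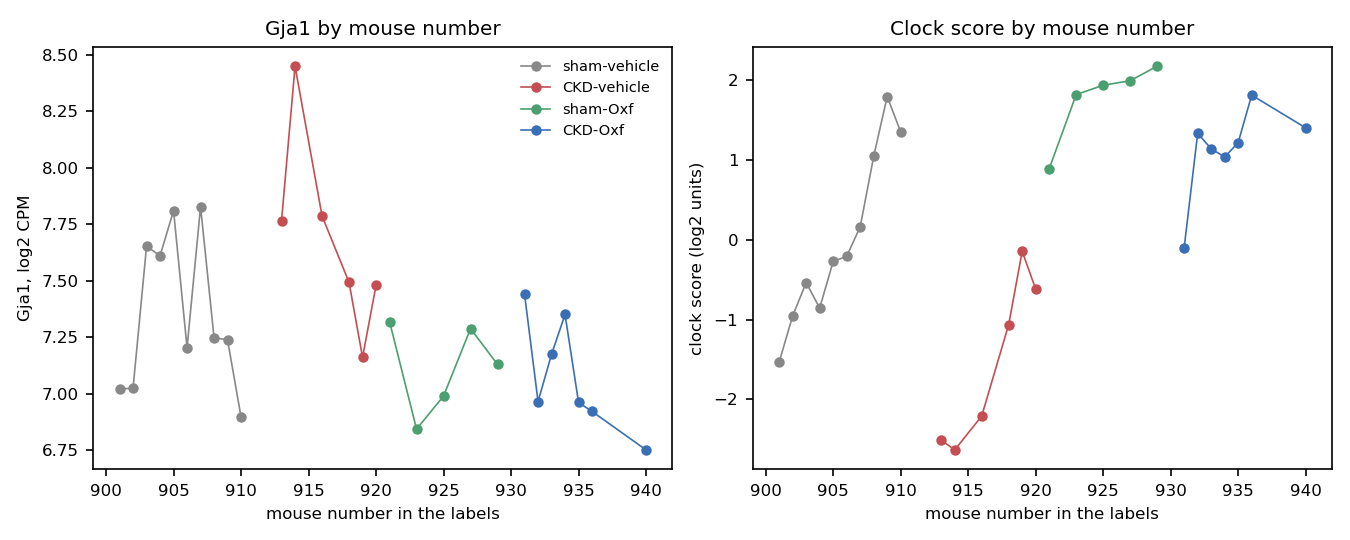
Gja1 level (log2 CPM, left) and clock score (log2 units, right) against mouse number, coloured by group, with lines joining mice of a group. Mouse 914 has the highest Gja1 and the lowest clock score of all, and mouse 931 the highest Gja1 and the lowest clock score of CKD-Oxf.

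Within groups, Hcn4 and Cntn2 varied together. With group means removed, their correlation over 28 libraries was 0.847, and it was 0.853 in sham-vehicle, 0.882 in CKD-vehicle and 0.878 in CKD-Oxf. Without mouse 921 it was 0.850. Cntn2 was the gene most like Hcn4 among 8148 genes compared, followed by Map1b (0.832) and Rgs6 (0.780). The libraries share depth and tissue composition, and several scores ran with both genes. Hcn4 correlated at 0.537 with the Schwann cell and nerve score, 0.524 with the fibroblast score and 0.485 with the atrial score. Cntn2 correlated at 0.521 with the fibroblast score, 0.517 with the mural score and 0.496 with the atrial score. Hcn4 also correlated at 0.578 with Cacna1g and at 0.568 with Cacna1h. Gja1 and Cacna1g correlated at -0.523, with -0.786 in sham-vehicle and -0.890 in CKD-vehicle but 0.470 in CKD-Oxf.

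**Figure D5:**
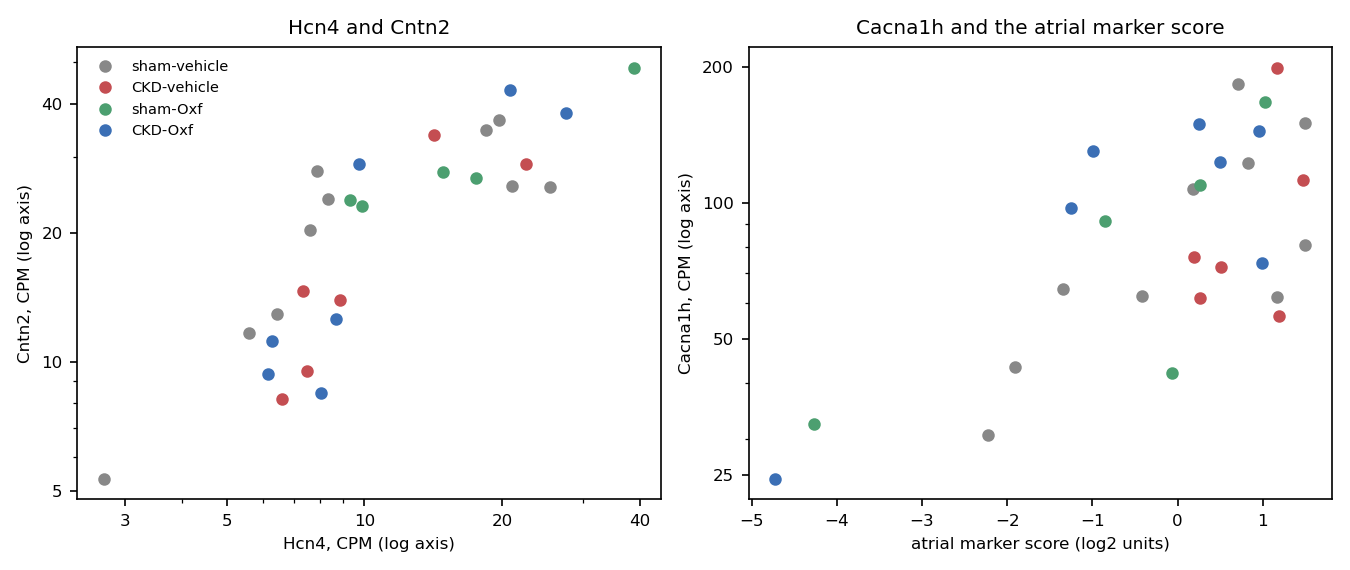
Cntn2 against Hcn4 (CPM, log axes, left) and Cacna1h (CPM, log axis) against the atrial marker score (log2 units, right), one point per mouse coloured by group. Mouse 925 is the highest for both Hcn4 and Cntn2, and mice 927 and 935 lie at the low end of the atrial score.

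By the same measure, the genes most like Cacna1h were Tbx5 (0.950), Gnao1 (0.934) and Plekha7 (0.931). Those most like Gja1 were Mthfd1 (0.902), Slc25a12 (0.900) and Mrps31 (0.890), and those most like Gja5 were Aldh1b1 (0.877), Maged1 (0.870) and Kcnj5 (0.857). For Hcn2 they were Prep (0.880), Fez2 (0.860) and Pacsin2 (0.857), and for Cacna1g they were Cux2 (0.827), Med12l (0.796) and Mrvi1 (0.795). Tbx3 was most like Mylk (0.780), Cdc42ep1 (0.757) and St3gal2 (0.757), and Cntn2, after Hcn4, like Cacna2d2 (0.750) and Prelp (0.738).

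Other genes of pacemaking and conduction were taken as a list, of which 63 are reported here: transcription factors, other pore-forming channels, partners of HCN and T-type channels, other connexins, intercalated disc partners and Purkinje markers. Of these, 56 were expressed enough to test. In Oxf averaged over surgery 14 had an unadjusted p under 0.05, against 23.0% of all genes. The list's median log2 fold change was 0.0030, against 0.0031 for all genes. In the other comparisons 0 of 56 passed in edgeR. At an unadjusted p under 0.05 there were 10 of 56 in CKD-vehicle against sham-vehicle, against 4.46% of all genes in either direction. All 10 were higher. In CKD-Oxf against CKD-vehicle the number was 11 of 56 (4 higher and 7 lower), against 13.1% of all genes in either direction. The shares of all genes that were higher or lower at this p were not counted. There were 4 in sham-Oxf against sham-vehicle (12.6% of all genes), 1 in CKD-Oxf against sham-Oxf (8.23%), 3 in the interaction (3.55%), 10 for surgery averaged over gavage (10.6%) and 3 for the slope on mouse number (5.5%).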

How the data were processed

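Ventricular RNA of 28 mice was sequenced. The authors deposited 1 table of raw counts per gene, made with STAR 2.6.1d and featureCounts 1.6.3 on build mm10, per the submitters' processing notes. Use of strand and of reads that match several places is not given in the sources used here. Groups and mouse numbers came from the labels. In R 4.3.3, edgeR 4.0.16 (TMM, filterByExpr by group with a minimum count of 10, robust quasi-likelihood F test) fitted 4 group means over 28 libraries to 24273 genes, and a common slope on mouse number. Adjusted p-values are Benjamini-Hochberg over these genes, and SE is the fold change divided by the root of F. Log2 CPM used a prior count of 2. Correlations used exact permutations, or 100000 draws in sham-vehicle. The smallest chi-square per degree of freedom between libraries of a group was 26.6, so no libraries agreed within sampling noise. Alternatives were DESeq2 1.42.0, limma 3.58.1 voom, other scalings, filters and covariates, and each library left out. Gene positions came from GENCODE M21. The fits and correlations across genes were tested on simulated data. The 8 genes are all named, with the 3 genes most like each. Related genes that passed were to be named too, but 1 gene of that list is not reported here and is left out of its counts, and no count of calls is given for the list in the averaged Oxf comparison. The genes and lists were chosen with earlier results of these data known.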

Additional observations from a re-analysis of the deposited data

Results flagged for a closer look

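Of 32 comparisons of the highest or lowest mouse of a group with its nearest neighbour in the 8 genes, 2 passed Dixon's 95% limit, where chance gives about 1.6. Cacna1h in CKD-Oxf had mouse 935 lowest, at 24.5 CPM against 73.6 CPM in the next mouse, a gap of 0.6076 of the group's range (limit 0.568). That mouse also had the lowest atrial score of all, -4.72. Cntn2 in sham-Oxf had mouse 925 highest, at 48.5 CPM against 27.7 CPM in the next, a gap of 0.7501 of the range (limit 0.710), and the same mouse was highest for Hcn4 at 38.9 CPM.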

How the results depend on the processing

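The count of the 8 genes past the threshold for Oxf averaged over surgery, 1 as reported, was 0 with no filter on low counts, the clock, atrial or 7SL covariate, or total-count scaling, and 2 with limma voom (Gja1 and Cacna1g). It ranged from 0 to 1 over the fits that left out 1 library. For CKD-Oxf against CKD-vehicle the count, 0 as reported, was 1 (Gja1) with DESeq2, with limma voom and without mice 921 and 934 together, where 1.75%, 14.9% and 8.86% of all genes passed, and 0 to 1 over the fits that left out 1 library. All other counts stayed at 0. With the ventricular score the count for averaged Oxf stayed at 1, but the gene was Hcn2. The number of all genes past the threshold for averaged Oxf, 681 as reported, was 0 with the clock score, 73 with total counts, 104 with the atrial score, 132 with the 7SL share, 161 without a filter, 226 with the ventricular score, 1422 with 10 counts required in every library, 2133 with DESeq2, 4707 without mice 921 and 934 and 5307 with limma voom. It was 109 without mouse 914 and 3362 without mouse 934. The cause of these changes was not tested. Total counts, upper quartile, the ventricular score and the removal of mice 921 and 934 together were chosen after seeing the data. No paired analysis was possible because mouse numbers are not shared between groups.

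Of 2704 alternative values of single genes, 2485 kept their direction and their side of the threshold. Those that changed sign did not pass the threshold in the reported fit, and the log2 values are listed by setting. With the clock score as a covariate, the values became Hcn2 -0.14, Gja5 -0.074 in CKD-vehicle against sham-vehicle, Gja5 0.11 in CKD-Oxf against CKD-vehicle and Gja1 0.066, Gja5 0.053, Tbx3 0.20 in sham-Oxf against sham-vehicle. It also gave Gja5 -0.013 in CKD-Oxf against sham-Oxf, Gja5 0.062 in the interaction and Hcn2 -0.23, Gja1 -0.066, Gja5 -0.043 for surgery averaged over gavage. It also gave Gja5 0.084 for Oxf averaged over surgery and Hcn2 0.021, Hcn4 0.092, Cacna1g -0.034, Gja1 0.015, Cntn2 0.13, Tbx3 0.0061 for the slope on mouse number. With the ventricular score as a covariate, the values became Hcn2 -0.18, Hcn4 0.26, Cacna1g 0.077 in CKD-vehicle against sham-vehicle, Hcn4 -0.13, Cacna1h -0.31 in CKD-Oxf against CKD-vehicle and Cacna1h -0.13 in the interaction. It also gave Hcn2 -0.24, Cacna1g 0.0084, Gja1 -0.018 for surgery averaged over gavage, Cacna1h -0.25 for Oxf averaged over surgery and Cacna1g -0.0089 for the slope on mouse number. With the 7SL share as a covariate, the values became Hcn4 0.067 in CKD-vehicle against sham-vehicle, Hcn4 -0.079, Cacna1h -0.051 in CKD-Oxf against CKD-vehicle and Gja1 0.014 in sham-Oxf against sham-vehicle. It also gave Cacna1g 0.12, Gja5 -0.057 in CKD-Oxf against sham-Oxf, Cacna1g 0.15 in the interaction and Hcn2 -0.12, Cacna1g 0.050 for surgery averaged over gavage. It also gave Cacna1h -0.34 for Oxf averaged over surgery and Cacna1g -0.025 for the slope on mouse number. With the atrial score as a covariate, the values became Cacna1h -0.18 in CKD-vehicle against sham-vehicle, Hcn2 -0.0076 in CKD-Oxf against CKD-vehicle and Cacna1h 0.24 in sham-Oxf against sham-vehicle. It also gave Cacna1g 0.012, Gja5 0.030 in the interaction and Cacna1h 0.0041 for the slope on mouse number. Under total-count scaling, the values became Cacna1h -0.039, Gja5 -0.011 in CKD-vehicle against sham-vehicle, Tbx3 0.070 in sham-Oxf against sham-vehicle and Gja5 -0.062, Tbx3 -0.023 in CKD-Oxf against sham-Oxf. It also gave Hcn2 -0.14, Gja5 -0.037 for surgery averaged over gavage and Hcn4 0.0023, Cntn2 0.021 for the slope on mouse number. With limma voom, the values became Cacna1h 0.091 in sham-Oxf against sham-vehicle and Hcn2 0.020 in CKD-Oxf against sham-Oxf. Without mice 921 and 934 together, the values became Cacna1h 0.14 in sham-Oxf against sham-vehicle, Hcn2 0.19, Gja5 -0.054 in CKD-Oxf against sham-Oxf and Tbx3 0.019 for surgery averaged over gavage. It also gave Cacna1g -0.0059 for the slope on mouse number. With DESeq2 size factors in edgeR, the values became Hcn2 -0.0090 for surgery averaged over gavage and Cntn2 0.0021 for the slope on mouse number. With the filter of 10 counts in every library, the values became Hcn2 -0.020 for surgery averaged over gavage and Cntn2 0.0023 for the slope on mouse number. With DESeq2, the values became Hcn2 -0.0088 for surgery averaged over gavage and Cntn2 0.0021 for the slope on mouse number. With upper-quartile scaling, the values became Hcn2 -0.044 for surgery averaged over gavage and Cntn2 0.0036 for the slope on mouse number. In sham-vehicle alone, the values became Hcn2 0.0018 for the slope on mouse number. As rank correlations with mouse number the values became Cacna1g -0.042 in sham-vehicle, Cacna1h -0.086, Tbx3 0.086 in CKD-vehicle and Cntn2 -0.21 in CKD-Oxf. Leaving out the 2 mice whose numbers lie farthest from the median, the correlations became Hcn2 -0.21, Cacna1g -0.21, Gja5 0.0005 in sham-vehicle, Hcn4 -0.23, Gja5 0.94, Cntn2 -0.42 in CKD-vehicle and Hcn2 0.015, Hcn4 -0.30, Cntn2 -0.11, Tbx3 -0.052 in CKD-Oxf. On total-count CPM, the correlations with mouse number became Hcn2 -0.078, Cacna1g -0.086 in sham-vehicle, Hcn2 0.20, Tbx3 0.22 in CKD-vehicle and Hcn2 0.26, Cacna1h 0.11 in CKD-Oxf. Leaving out each library in turn, signs also changed as follows. In CKD-vehicle against sham-vehicle, the ranges were Hcn4 -0.47 to 0.040, Cacna1h -0.26 to 0.26. In CKD-Oxf against CKD-vehicle, the ranges were Hcn2 -0.055 to 0.18, Hcn4 -0.17 to 0.49. In sham-Oxf against sham-vehicle, the ranges were Cacna1h -0.40 to 0.18, Tbx3 -0.14 to 0.048. In CKD-Oxf against sham-Oxf, the ranges were Hcn2 -0.33 to 0.19, Gja1 -0.092 to 0.027, Gja5 -0.083 to 0.21, Tbx3 -0.0036 to 0.19. In the interaction, the ranges were Hcn4 -0.72 to 0.11, Cacna1g -0.25 to 0.16, Cacna1h -0.038 to 0.54, Gja5 -0.18 to 0.11, Cntn2 -0.39 to 0.13. For surgery averaged over gavage, the ranges were Hcn2 -0.074 to 0.19. For Oxf averaged over surgery, the ranges were Cacna1h -0.13 to 0.23. For the slope on mouse number, the ranges were Hcn4 -0.086 to 0.0094, Cacna1g -0.0096 to 0.027, Cacna1h -0.031 to 0.014, Cntn2 -0.047 to 0.034.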
